A study of Mus musculus with 25 samples.

Results

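Alpha smooth muscle actin mRNA (Acta2) was more abundant after anti-CD73 treatment of mice bearing E0771 tumours, and gamma smooth muscle actin mRNA (Actg2) was less abundant, with no overlap between the 3 treated and the 3 control libraries for either gene. The genes described here are 10 contractile and serum response factor (SRF) target genes, Acta2, Actg2, Tagln, Cnn1, Cnn2, Myl9, Tpm1, Tpm2, Vcl and Srf, taken by symbol from 25006 entries of the deposited table. Each symbol matched 1 entry. The list was chosen by measured values, the normalized counts of these same 6 libraries in this comparison, so the members' differences between the groups are a description and carry no test.

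The anti-CD73 group is made of 3 RNA-seq libraries of tumour preparations from C57BL/6 mice given an antibody against CD73 every 3 days. The control (con) group is made of 3 libraries of the same kind of preparation from C57BL/6 mice, for which the labels name no agent and, as for the treated mice, no age. E0771 is a mouse mammary carcinoma line, and CD73 is the cell-surface enzyme that forms adenosine from AMP. The labels call the preparations enriched CD8+ T cells, and nothing in them ties a library to a single animal, so any p-value measures the spread between these samples, which may be technical. The series has 25 samples, and the remaining 19, all from spleen T cells in culture, were not analysed here.

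SRF is a transcription factor that binds a short DNA element called the CArG box. With myocardin or the myocardin-related factors it drives genes of the contractile apparatus and the actin cytoskeleton, and with ternary complex factors of the Elk family it drives genes that respond within minutes to growth factors. In tumours, contractile genes such as Acta2 are best known as marks of myofibroblasts, pericytes and vascular smooth muscle, whereas vinculin, several tropomyosins and calponin 2 are made by many cell types.

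The 6 libraries held between 10180624 and 17161679 reads in genes, recovered from the deposited normalized counts. The 8 T cell markers found in the table (T cell receptor complex, CD8, CD2, CD5 and Lck) summed to between 267 and 511 normalized counts in the anti-CD73 libraries and between 134 and 561 in the controls. Krt8, a keratin of simple epithelia that T cells are not known for, stood at 2341, 2000 and 2651 normalized counts after anti-CD73 and at 1856, 3591 and 4559 in the controls. The other epithelial markers listed were far lower over the 6 libraries: Krt18 between 37.0 and 112, Krt19 between 0 and 33.9, and Epcam between 4.11 and 9.14. Krt19 had the higher mean after anti-CD73, 20.0 against 4.53. The values below are those of bulk RNA from these preparations, in which fewer cells of a type and less RNA per cell cannot be told apart. Control replicate 1 stood apart from the other controls. By limma-trend with Benjamini-Hochberg adjustment, 0 of 12262 genes tested passed an adjusted p of 0.05 with all 6 libraries (a background of 0.0%), with 1902 genes at an unadjusted p under 0.05. The edgeR quasi-likelihood test, run on recovered reads, called 0 as well, DESeq2 on the same reads called 586 (4.78%), and limma without control replicate 1 called 2724 (22.2%).

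Defining transcripts of differentiated smooth muscle were at or near 0, so the 10 genes are called contractile and SRF target genes here rather than smooth muscle genes. Cnn1, which encodes the smooth muscle calponin, had 2, 3 and 2 reads in anti-CD73 replicates 1, 2 and 3, and 0, 3 and 0 reads in control replicates 1, 2 and 3, with 3 reads taken as the limit of detection in a library. No fold is given for it. Myh11, the smooth muscle myosin heavy chain, stood at 1.86, 0 and 0 normalized counts after anti-CD73 and at 0, 1.27 and 2.99 in the controls. Lmod1, a leiomodin of smooth muscle, was listed at 0 in all 3 anti-CD73 libraries and at 1.02, 0 and 0 in the controls. Myocd, the smooth muscle coactivator myocardin, reached at most 1.06 after anti-CD73 and 2.03 in the controls. Of the 10 members, the other 9 had a mean over the 6 libraries of at least 10 normalized counts, the limit below which genes were left out of the fit.

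**Figure D1:**
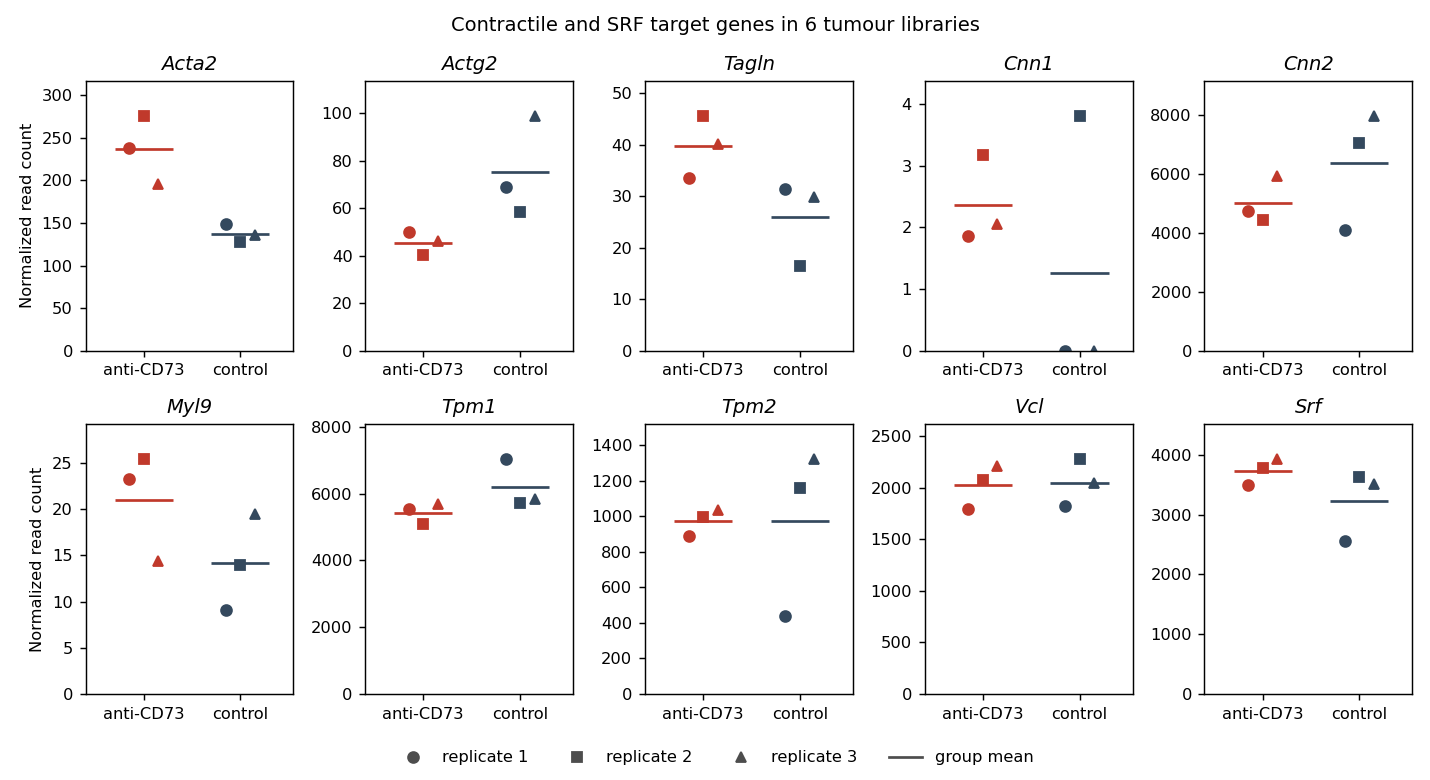
Normalized read count of each of the 10 genes (y axis, linear, from 0) in the anti-CD73 and control libraries, with 1 point per library and the group mean as a line. Acta2 lies between 195 and 275 after anti-CD73 and between 128 and 148 in controls, and Actg2 lies on the other side, between 40.2 and 50.2 against 58.3 and 98.8. Control replicate 1 is the lowest library for Tpm2, Cnn2, Myl9 and Srf.

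The smooth muscle actins lay on opposite sides of the controls. Acta2 (ENSMUSG00000035783; GRCm38.p6 chromosome 19, 34240336 to 34255585), the actin of vascular smooth muscle and of myofibroblast stress fibres, stood at 238, 275 and 195 normalized counts in the anti-CD73 libraries and at 148, 128 and 135 in the controls. Its lowest treated library lay above its highest control. The group means were 236 ± 40.0 after anti-CD73 and 137 ± 10.3 in the controls (SD, n = 3). The log2 fold change was 0.77 (standard error, SE, 0.18; 1.70-fold) on the log2(normalized count + 1) scale used throughout. Actg2 (ENSMUSG00000059430; chromosome 6, 83512909 to 83536251), the actin of gut and other visceral smooth muscle, stood at 50.2, 40.2 and 46.3 normalized counts after anti-CD73 and at 69.0, 58.3 and 98.8 in the controls. All 3 treated libraries lay below all 3 controls, with means of 45.6 ± 5.02 and 75.4 ± 21.0 and a log2 fold change of -0.68 (SE 0.26). These 2 directions were the same in all 17 settings of the analysis, between 0.65 and 0.90 for Acta2 and between -0.85 and -0.47 for Actg2. The settings draw on the same libraries that the genes were chosen on. Some of them, such as the filters and the block by title number, cannot change the value, so this is a description.

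Because the actins lay on opposite sides, the ratio of their normalized counts had to separate the libraries further than either gene alone. It restates their values and is not a further result. Actg2 over Acta2 was 0.211, 0.146 and 0.237 after anti-CD73 and 0.466, 0.455 and 0.729 in the controls. The mean ratio was 0.198 ± 0.0467 after anti-CD73 and 0.550 ± 0.155 in the controls (SD, n = 3), or 2.78-fold higher in the controls. Library scaling cancels in such a ratio. The muscle actins have closely similar coding sequences, and no source used here says how reads with several matches were counted, so the level of each actin is uncertain. The related skeletal muscle actin Acta1 stood at 105, 83.6 and 116 normalized counts after anti-CD73 and at 54.8, 106 and 89.1 in the controls, which overlap, and the cardiac actin Actc1 did not exceed 3.74 in any library. Actb, the abundant cytoplasmic beta actin, had a log2 fold change of -0.19 (SE 0.14, limma adjusted p = 0.546).

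**Figure D2:**
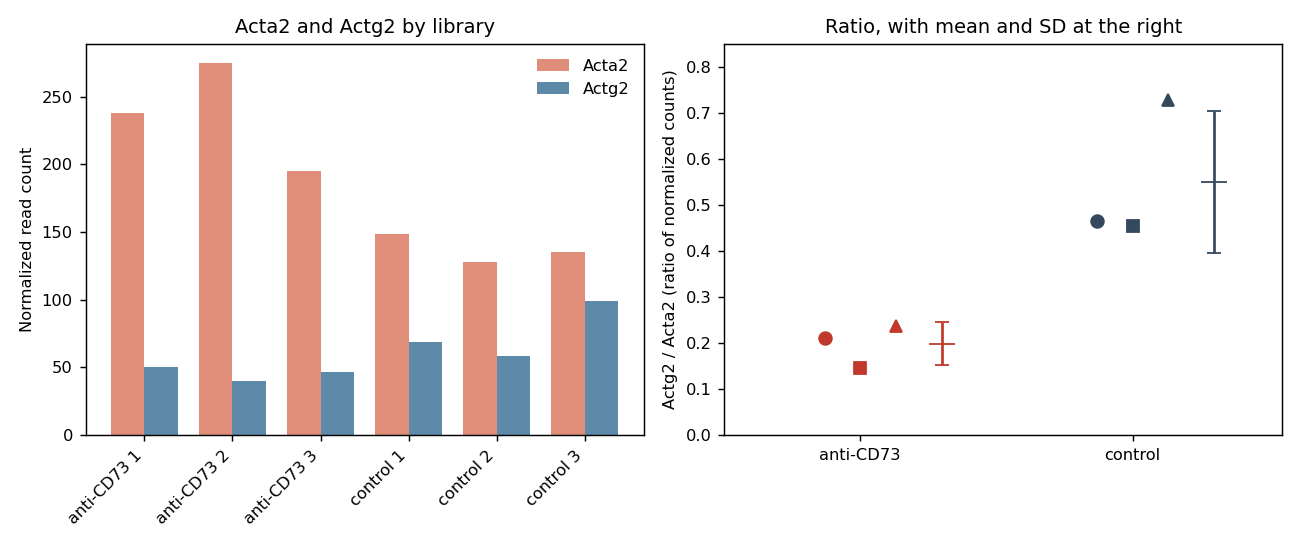
Left, normalized read counts of Acta2 and Actg2 in each of the 6 libraries, with the anti-CD73 libraries at the left. Right, the ratio of Actg2 to Acta2 by library, with the group mean and SD beside the points. The ratio lies between 0.146 and 0.237 after anti-CD73 and between 0.455 and 0.729 in controls.

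Tagln and Myl9, further contractile genes of smooth muscle and myofibroblasts, lay on the same side as Acta2, on few reads. Tagln (ENSMUSG00000032085; chromosome 9, 45929628 to 45936058), which encodes the actin-binding protein transgelin, stood at 33.5, 45.5 and 40.1 normalized counts after anti-CD73 and at 31.5, 16.5 and 29.9 in the controls. The groups did not overlap, but the gap between 33.5 and 31.5 is within counting error, since those values come from 36 and 31 reads with exact 95% Poisson intervals of 25.2 to 49.8 and 21.1 to 44.0 reads. Its log2 fold change was 0.64 (SE 0.32), and 0.35 without control replicate 2, its lowest library. Myl9 (ENSMUSG00000067818; chromosome 2, 156775408 to 156781657), a regulatory light chain of myosin, stood at 23.2, 25.4 and 14.4 after anti-CD73 and at 9.14, 13.9 and 19.5 in the controls, which overlap. Its log2 fold change was 0.56 (SE 0.39) with all libraries and 0.29 without control replicate 1. Relative to Acta2, neither gene separated the groups: the ratio of Tagln to Acta2 averaged 0.170 ± 0.0326 after anti-CD73 and 0.187 ± 0.0510 in the controls (SD, n = 3), and that of Myl9 to Acta2 averaged 0.0879 ± 0.0126 and 0.105 ± 0.0412.

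The calponin, tropomyosin and vinculin genes that many cell types express did not follow Acta2. Cnn2 (ENSMUSG00000004665; chromosome 10, 79988600 to 79995400), the calponin of non-muscle cells, stood at 4736, 4435 and 5929 normalized counts after anti-CD73 and at 4101, 7067 and 7970 in the controls. Control replicate 1 was the lowest of the 6 libraries and the other controls were the highest. The log2 fold change of Cnn2 was -0.30 (SE 0.25), and -0.59 without control replicate 1. Tpm1 (ENSMUSG00000032366; chromosome 9, 67022590 to 67049672), the alpha tropomyosin gene, stood at 5524, 5079 and 5680 after anti-CD73 and at 7023, 5709 and 5822 in the controls. Its treated libraries all lay below its controls, although the nearest pair, 5680 and 5709, differed by less than the spread within either group, and the log2 fold change was -0.18 (SE 0.12), or -0.09 without control replicate 1.

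Tpm2 (ENSMUSG00000028464; chromosome 4, 43513726 to 43523583), the beta tropomyosin gene, showed the widest spread among controls of these well-measured genes. It stood at 889, 998 and 1037 normalized counts after anti-CD73 and at 438, 1161 and 1320 in the controls. The treated libraries lay between control replicate 1 and the other controls. Its log2 fold change was 0.15 (SE 0.38) with all libraries and turned to -0.35 without control replicate 1. Vcl (ENSMUSG00000021823; chromosome 14, 20929383 to 21033676), which encodes the adhesion protein vinculin, stood at 1800, 2079 and 2214 after anti-CD73 and at 1827, 2277 and 2049 in the controls. These ranges largely coincide, and the log2 fold change was -0.01 (SE 0.13). Counts are per gene, so the smooth muscle and non-muscle isoforms of Tpm1, Tpm2 and Vcl are summed, and, as normalized counts are not per transcript length, the values of different genes do not rank their levels.

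Srf itself (ENSMUSG00000015605; chromosome 17, 46546838 to 46558267) stood at 3503, 3779 and 3924 normalized counts after anti-CD73 and at 2557, 3631 and 3513 in the controls. The treated libraries overlap with the controls, of which replicate 1 was lowest. Its log2 fold change was 0.22 (SE 0.15), and 0.06 without control replicate 1. With all 6 libraries, 2 of the 9 members in the fit had groups that did not overlap with anti-CD73 higher (Acta2 and Tagln) and 2 with anti-CD73 lower (Actg2 and Tpm1). Among all 12262 genes tested, 11.5% did not overlap with anti-CD73 higher and 12.0% with anti-CD73 lower. The median log2 fold change was 0.15 over these 9 members and 0.0039 over all genes tested, and -0.089 over the members without control replicate 1.

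**Figure D3:**
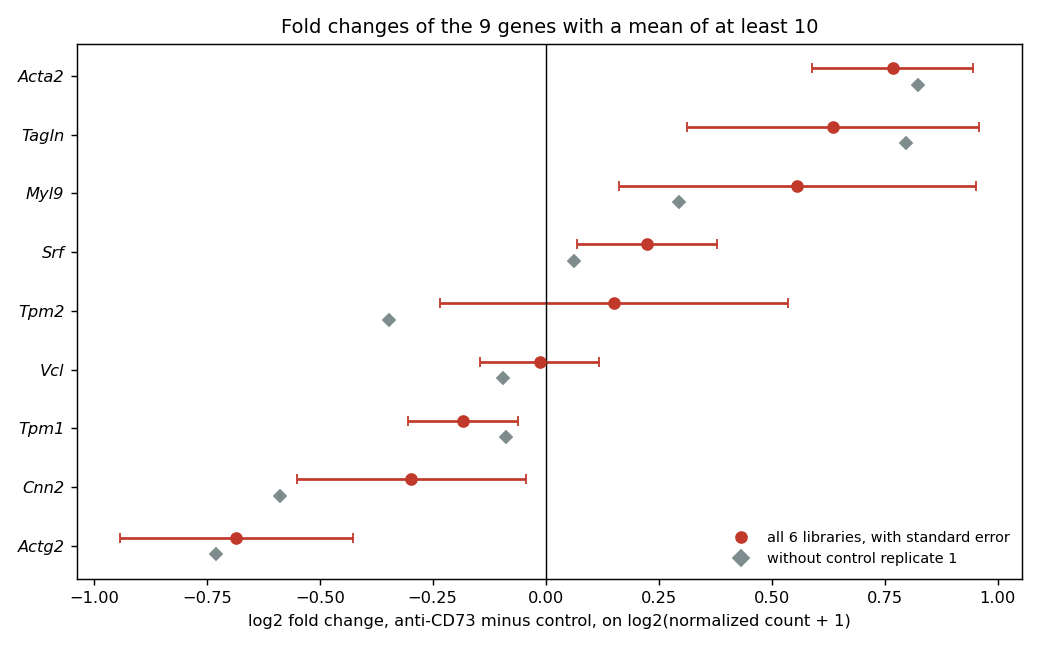
Log2 fold change of anti-CD73 over control (x axis) for the 9 genes in the fit, with the standard error for all 6 libraries as bars and the value without control replicate 1 as diamonds. Acta2, Tagln, Myl9 and Srf lie above 0 and Actg2, Cnn2, Tpm1 and Vcl below it in both sets, while Tpm2 changes side, from 0.15 with all libraries to -0.35 without control replicate 1.

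The promoters of the members were searched for the CArG box. The list was gathered as SRF targets, so the presence of boxes is a description and not an independent property of the genes. The windows come from RefSeq on GRCm38.p6 and were used for 8 of the 10 members, those of Actg2 and Tagln being not analysed here. Each window runs from 250 bases before to 50 bases after 1 annotated start site, which can lie inside the gene coordinates given above, since those span the whole gene record. The start site used lay 2105 bases inside the record for Srf, 212 bases for Acta2, 56 for Myl9 and 15 for Vcl, and on its boundary for Cnn2. The element was read as 2 C, 6 bases that are each A or T, and 2 G, which has the same form on both strands. A full match was present in 4 of the 8 windows, those of Cnn2, Myl9, Vcl and Srf, against 1.63% of all 32851 promoter windows of this length in the table. A match that differs at 1 position or none was present in 6 of the 8, against 21.1% of all windows, and Cnn1 and Tpm2 had neither. The stretches around the boxes are shown for the members with a full box and for Acta2, on which the results turn, with the box or, for Acta2, the near match in capitals, 5′ to 3′ on the strand of the gene.
Srf (chr17:46556180-46556279, minus strand): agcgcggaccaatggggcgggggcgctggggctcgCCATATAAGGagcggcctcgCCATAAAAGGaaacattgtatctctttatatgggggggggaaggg
Cnn2 (chr10:79988509-79988588, plus strand): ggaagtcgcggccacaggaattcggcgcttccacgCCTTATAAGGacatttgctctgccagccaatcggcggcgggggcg
Myl9 (chr2:156775268-156775347, plus strand): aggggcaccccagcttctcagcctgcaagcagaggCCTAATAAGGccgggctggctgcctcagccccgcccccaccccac
Vcl (chr14:20929148-20929215, plus strand): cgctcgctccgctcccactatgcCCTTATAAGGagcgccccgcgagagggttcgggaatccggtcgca
Acta2 (chr19:34255363-34255492, minus strand): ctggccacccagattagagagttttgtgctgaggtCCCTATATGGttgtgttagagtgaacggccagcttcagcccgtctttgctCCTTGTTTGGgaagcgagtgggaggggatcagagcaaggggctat

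The Srf promoter held a pair of full boxes, beginning 82 and 62 bases before the start site of its window. The box of Cnn2 began 56 bases before the start site of its window, that of Myl9 161 bases and that of Vcl 227 bases. Both capitalised stretches of Acta2, beginning 84 and 34 bases before the start site of its window, differ from the element at 1 position each, where a C or a G stands among the A and T bases. Outside the members, in lists described below, where a gene can have several windows, a full box was found for 2 of the 11 actin cytoskeleton targets with a window (Actg1 and Fhl2), 1 of 6 immediate early targets (Egr2), 1 of 17 other contractile genes (Fhl1) and 0 of 14 genes of the SRF cofactors and RhoA route, and for 4 of 9 paralogues of the members (Acta1, Actc1, Actg1 and Myl6). The members with a full box did not share a direction: their log2 fold changes were 0.22 for Srf, -0.30 for Cnn2, 0.56 for Myl9 and -0.01 for Vcl. A match of letters is not evidence of binding, which was not measured in these samples.

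Among 21 other contractile genes of smooth muscle, 13 had enough reads to be tested, and 0 passed the limma test over all genes with all 6 libraries. At an unadjusted p under 0.05, 3 were higher and 2 lower, where 8.69% of all genes tested were higher and 6.82% lower. Des, which encodes the intermediate filament desmin of muscle and pericytes, had the smallest p. It stood at 51.1, 55.1 and 47.3 normalized counts after anti-CD73 and at 9.14, 13.9 and 18.7 in the controls, so every treated library lay above every control. Its log2 fold change was 1.85 (SE 0.32, limma adjusted p = 0.141), and it passed without control replicate 1 (1.60, limma adjusted p = 0.00533) and by DESeq2 (adjusted p = 0.000809), the only gene of the list that DESeq2 called, where it called 2.85% of all genes as higher and 1.93% as lower. Smtn, which encodes the actin-binding protein smoothelin, had 0.42 (SE 0.13, limma adjusted p = 0.204), and Ppp1r12b, a targeting subunit of myosin phosphatase, had -0.56 (SE 0.16, limma adjusted p = 0.193). Mylk, the myosin light chain kinase, stood at 293, 217 and 155 after anti-CD73 and at 300, 251 and 190 in the controls, with a log2 fold change of -0.18 (SE 0.27, limma adjusted p = 0.792). Groups did not overlap for 5 of the 13 with anti-CD73 higher and for 3 with anti-CD73 lower, beside 11.5% and 12.0% of all genes tested, and the median log2 fold change was 0.036. Of the genes named here, Des and Smtn passed as higher without control replicate 1 and Ppp1r12b as lower, where 11.9% and 10.3% of all genes did so.

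The cofactors of SRF and the RhoA route that frees myocardin-related factors from actin gave 0 of 17 tested genes past the limma test with all libraries (1 was higher and 3 lower at an unadjusted p under 0.05, beside 8.69% and 6.82% of all genes; median log2 fold change -0.13). Mkl1, the myocardin-related factor also called Mrtfa, stood at 903, 906 and 941 normalized counts after anti-CD73 and at 557, 602 and 678 in the controls. All treated libraries lay above all controls, with a log2 fold change of 0.59 (SE 0.12, limma adjusted p = 0.149; DESeq2 adjusted p = 0.00163). Its relative Mkl2 (Mrtfb) had 0.01 (SE 0.15, limma adjusted p = 0.988). Klf4, a zinc finger factor that can repress smooth muscle genes, stood at 1364, 1394 and 1197 after anti-CD73 and at 2094, 2160 and 2300 in the controls. Its treated libraries all lay below the controls, with a log2 fold change of -0.73 (SE 0.11, limma adjusted p = 0.141; DESeq2 adjusted p = 6.21e-06). Elk4, a ternary complex factor, had -0.39 (SE 0.15, limma adjusted p = 0.275). Without control replicate 1, Mkl1 passed as higher, and Klf4, Elk4, the forkhead factor gene Foxo4 and the cofilin gene Cfl1 as lower, beside 11.9% and 10.3% of all genes. Foxo4 stood at 1102 in that control, among its treated libraries, so its pass rests on leaving that control out.

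Other targets of SRF lay on both sides of 0 as well. Of 15 genes of the actin cytoskeleton and matricellular proteins, 0 passed the limma test with all libraries, and the median log2 fold change was -0.14. At an unadjusted p under 0.05, 1 was higher and 4 lower, beside 8.69% and 6.82% of all genes. Ctgf (Ccn2), a secreted matricellular protein, stood at 40.9, 36.0 and 30.8 normalized counts after anti-CD73 and at 49.8, 114 and 77.1 in the controls, with -1.07 (SE 0.33, limma adjusted p = 0.205). Its neighbours in the list by p were Tes, which encodes the adhesion protein testin, with -0.33 (SE 0.13, limma adjusted p = 0.297), and Cyr61 (Ccn1), with -0.31 (SE 0.13, limma adjusted p = 0.30). Thbs1, which encodes thrombospondin 1 and was picked out after its values were seen, stood at 30269, 30945 and 21137 after anti-CD73 and at 26640, 10723 and 5283 in the controls. Its log2 fold change was 1.24 (SE 0.52, limma adjusted p = 0.318), and 1.85 without control replicate 1 (limma adjusted p = 0.00332), which lay with the treated libraries. Zyx, Flna and Ctgf passed as lower without that control, where 11.9% of all genes passed as higher and 10.3% as lower. In that control, Flna stood at 32585, below its lowest treated library at 35277, and Zyx at 8203, among its treated libraries. The passes of Flna and Zyx thus rest on leaving it out.

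Of 10 immediate early targets, 9 were tested, Egr4 being listed at 0 in every library, and 0 passed the limma test with all libraries. At an unadjusted p under 0.05, 0 were higher and 1 lower, beside 8.69% and 6.82% of all genes. The median log2 fold change was 0.15. Fosb, a partner in AP-1, stood at 4318, 4368 and 3049 normalized counts after anti-CD73 and at 8526, 6269 and 6855 in the controls. The groups did not overlap, with a log2 fold change of -0.89 (SE 0.18, limma adjusted p = 0.151; DESeq2 adjusted p = 0.00268). Fos, its paralogue, had 0.29 (SE 0.18, limma adjusted p = 0.482), and the zinc finger genes Egr1, Egr2 and Egr3 had 0.40 (SE 0.27, limma adjusted p = 0.512), 0.88 (SE 0.39, limma adjusted p = 0.338) and 1.02 (SE 0.52, limma adjusted p = 0.39). Without control replicate 1, Egr1, Egr2 and Egr3 passed as higher and Fosb, Ier2 and Junb as lower, where 11.9% of all genes passed as higher and 10.3% as lower. Egr1 stood at 438 in that control, above its highest treated library at 385. Ier2 and Junb stood at 1229 and 9521 there, below their lowest treated libraries at 1766 and 9600. The passes of Egr1, Ier2 and Junb thus rest on leaving that control out. Of the 10 paralogues of the members, 9 were tested and 0 passed, with a median log2 fold change of -0.18. At an unadjusted p under 0.05, 0 were higher and 2 lower, beside the same 8.69% and 6.82% of all genes. The tropomyosin genes Tpm4 and Tpm3 had -0.32 (SE 0.12, limma adjusted p = 0.28) and -0.25 (SE 0.10, limma adjusted p = 0.295), beside -0.18 for Tpm1, and the calponin gene Cnn3 had -0.22 (SE 0.11, limma adjusted p = 0.371), beside -0.30 for Cnn2. Without control replicate 1, Cnn3 and the myosin light chain genes Myl6 and Myl12a passed as lower, beside 10.3% of all genes. In that control, Myl6 stood at 1623, below its lowest treated library at 1852, and Myl12a at 5069, among its treated libraries. The passes of Myl6 and Myl12a thus rest on leaving it out.

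**Figure D4:**
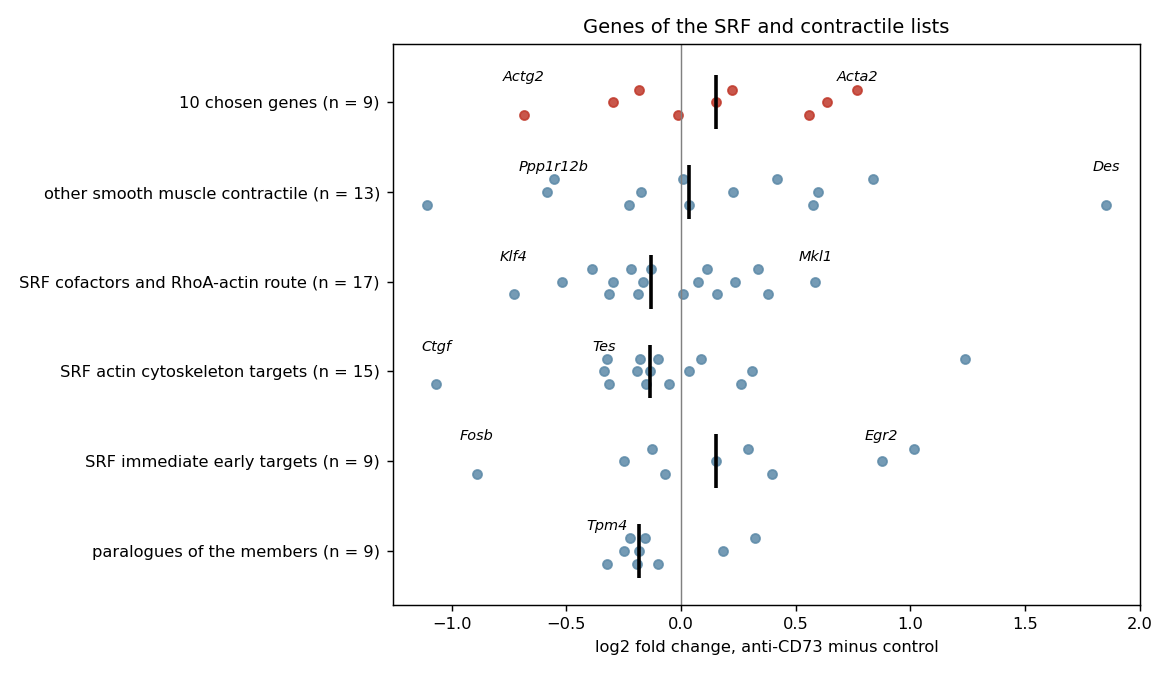
Log2 fold change of anti-CD73 over control (x axis) for every gene in the fit, by list (y axis), with n the number of genes in the fit, 1 point per gene and the list's median as a black bar. Each list has genes on both sides of 0, Des (1.85) lies farthest to the right and Fhl1 (-1.11) farthest to the left.

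The summed mural and fibroblast markers also lay higher in the anti-CD73 libraries, which was not particular to stromal lists. All 9 macrophage, 8 T cell and 4 endothelial markers tested had log2 fold changes above 0, although the sums of those lists overlapped between the groups. Their median log2 fold changes were 0.70, 0.68 and 0.85, beside 0.58 for the mural and 0.24 for the fibroblast markers. The 10 mural cell markers, with most of their reads in Pdgfrb and Mcam, summed to 843, 1064 and 1020 normalized counts after anti-CD73 and to 715, 717 and 603 in the controls. The 10 fibroblast markers summed to 5030, 5864 and 5401 after anti-CD73 and to 4592, 4926 and 4009 in the controls. Most of these reads were in Col3a1, with means of 1915 and 1278, and in Pdgfra, with 1882 and 1762, which overlapped. Col1a1, Col1a2, Thy1 and Pdpn also had higher means after anti-CD73, and Postn, Dcn, Lum and Fap had lower ones. Of the mural cell markers, the receptor gene Notch3 lay lower, between 12.7 and 15.4 after anti-CD73 and between 16.2 and 55.7 in the controls. Its log2 fold change was -0.85 (SE 0.49, limma adjusted p = 0.445). Neither the mural nor the fibroblast sum overlapped between the groups. Of the tested genes, 3 of 5 mural and 6 of 9 fibroblast markers lay higher after anti-CD73. Changes among all 12262 genes tested centred near 0 (median log2 0.0039), so either direction was common. With all libraries, 0 of these markers passed the limma test. Without control replicate 1, Pdgfrb, Mcam and Pdpn passed it as higher, where 11.9% of all genes did so. Pdpn stood at 331 in that control, above its highest treated library at 219, so its pass rests on leaving that control out. The defining pericyte markers Rgs5, Cspg4 and Kcnj8 stayed at or below 11.6, 5.29 and 1.86 after anti-CD73 and at or below 28.4, 3.05 and 1.27 in the controls. Relative to Pdgfrb, the receptor of mural cells and fibroblasts, Acta2 overlapped between the groups, with a mean ratio of 0.444 ± 0.0878 after anti-CD73 and 0.391 ± 0.0908 in the controls (SD, n = 3). Relative to Pdgfra, the fibroblast receptor, it did not overlap, with 0.127 ± 0.0292 and 0.0785 ± 0.0113, whereas relative to the fibroblast collagen gene Col3a1 it did, with 0.124 ± 0.0121 and 0.114 ± 0.0390. These ratios were chosen after the values were seen, and the part of stromal cells in the Acta2 difference was not tested.

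The marker sums of other cell types also set control replicate 1 apart from the other controls, some lower and some higher. Relative to the mean of the other controls on the log2 scale, control replicate 1 lay lower by -1.50 for Tpm2, -0.87 for Cnn2, -0.79 for Myl9 and -0.48 for Srf, and higher by 0.48 for Tagln and 0.28 for Tpm1. The 4 erythroid markers summed to 20302, 30592 and 8164 normalized counts after anti-CD73 and to 7760, 54713 and 58062 in control replicates 1, 2 and 3. The 4 tumour epithelial markers, with most of their reads in Krt8, summed to 2483, 2092 and 2694 after anti-CD73 and to 1955, 3658 and 4654 in the controls, with control replicate 1 lowest of the 6 libraries in both sums. The 9 macrophage markers summed to 11211, 14461 and 8253 after anti-CD73 and to 9908, 6163 and 5546 in the controls. For the 6 endothelial markers the sums were 725, 871 and 558 after anti-CD73 and 776, 257 and 204 in the controls. Control replicate 1 was the highest control in both of these sums and in that of the T cell markers, at 561 beside 134 and 186. The 6 platelet markers, of which Gp1bb was at 0 throughout, summed to between 496 and 778 after anti-CD73 and between 411 and 783 in the controls. What these cell types contributed to the levels of Cnn2, Tpm2 and Srf was not tested.

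**Figure D5:**
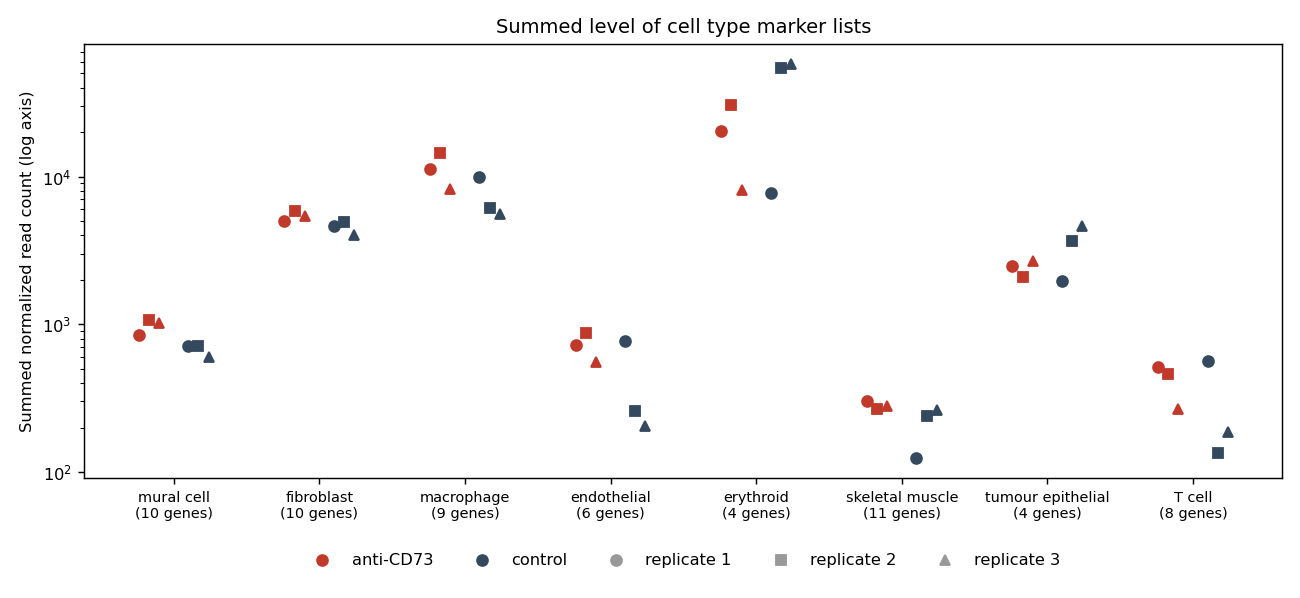
Summed normalized read count of 8 marker lists (y axis, log scale) by library, anti-CD73 at the left of each pair. The mural, fibroblast and skeletal muscle sums do not overlap between the groups. Control replicate 1 lies apart from controls 2 and 3 in every list but the mural and fibroblast ones, skeletal muscle included (124 against 238 and 261).

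The members were compared by the root mean square difference between their centred log2 values over the 6 libraries. Genes that both vary little also differ little by this measure, so a small value does not mean that they rise and fall together. The smallest difference was between Vcl and Srf, at 0.152, followed by Tpm1 and Vcl at 0.225. In control replicate 1, Tpm1 was at its highest (7023), whereas Vcl (1827) lay below its other controls (2277 and 2049). Acta2 lay closest to Tagln, at 0.292. Acta2 and Actg2 differed by 0.786. Among 10239 other genes with a mean of at least 50, the patterns most like that of Acta2 were those of Hmox2 (0.0580), Znfx1 (0.0584), Serping1 (0.0661), Oas1g (0.0726) and Daxx (0.0832). Those most like Srf were Ecm1 (0.0242), Prkar1b (0.0296), Pxn (0.0297), Mppe1 (0.0321) and Zfp746 (0.0334). Those most like Tagln were farther off, Pafah2 (0.142), Map3k12 (0.161), Sfxn5 (0.162), Best3 (0.164) and Ddx11 (0.167), on a gene with at most 43 reads in a library.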

How the data were processed

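Bulk RNA-seq was analysed for 6 mouse libraries, 3 anti-CD73 and 3 control, grouped by sample title, with columns matched by description. Per the labels' protocols, RNA was stored in Trizol and extracted with a Direct-zol kit, and NEBNext Ultra II reagents were used for the libraries. Per the labels, the deposited values are a signal, namely DESeq-normalized read counts per gene. Per the submitters' processing notes, Bowtie 0.12.7 and mm10 are listed, with no role stated. The sources used here do not give the counter, annotation release, strand use or treatment of reads with several matches.

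All values (100%) were whole multiples of the value of 1 read in their library within 0.01, so reads were recovered by division. Entries without a symbol held 0.238% of reads. Genes were tested with limma-trend (version 3.58.1, R 4.3.3), a two-sided test without a block on log2(normalized count + 1), on the 12262 genes with a mean of at least 10, with Benjamini-Hochberg adjustment and a threshold of 0.05. This scale understates changes of genes with few reads. As normalized values are not counts, count tests were used only as alternatives: edgeR 4.0.16 (TMM, quasi-likelihood) and DESeq2 1.42.0 on the recovered reads. Other alternatives were other pseudocounts, filters and scalings, replicate blocks and each library left out. The fit was tested on simulated data. Poisson intervals cover counting error only. Figures were drawn with matplotlib 3.10.9.

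The members, the lists and the tests were chosen with earlier results of these data known. Of each list outside the members, the 3 genes with the smallest p were named where none passed, with a fixed panel (Myh11, Mylk, Des, Myocd, Mkl1, Mkl2, Fos, Egr1, Actb) and the 5 genes most like Acta2, Tagln and Srf. A gene of the contractile list is not reported here by name. Marker lists covered mural, fibroblast, myoepithelial, skeletal muscle, macrophage, endothelial, platelet, erythroid, tumour epithelial and T cells; Hbb-bs, Hbb-bt and Trac were not found by symbol. Gene coordinates are 1-based, from the RefSeq table of GRCm38.p6, the assembly of mm10.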

Additional observations from a re-analysis of the deposited data

How the results depend on the processing

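The directions of Acta2, Tagln, Myl9, Srf, Actg2, Cnn2 and Tpm1 were the same in every setting that gave them a value, while Tpm2 lay higher in 15 of 17 settings and lower in 2, and Vcl higher in 5 and lower in 12. As the members were chosen on these libraries, this describes the processing and is not support for the directions. Over all genes and with all 6 libraries, the count of calls was 0 by limma without a block and 0 by edgeR. It was 586 by DESeq2 and 1780 by limma with a replicate block by description number. With each library left out it lay between 0 and 2724, the 2724 being without control replicate 1. The block by description number gives control replicate 1 and anti-CD73 replicate 2 blocks of their own, so only the other 4 libraries inform it. The members' median log2 fold change of 0.15 was -0.013 over genes with a mean of at least 50, -0.042 with that block, 0.0095 by DESeq2 and between -0.089 (without control replicate 1) and 0.32 with a library left out. The lists counted 0 genes past the limma test without a block on all 6 libraries. With the block by description number they counted 2 (other contractile), 3 (cofactors), 2 (actin cytoskeleton), 5 (immediate early) and by DESeq2 1, 2, 0 and 1. With a library left out they ranged from 0 to 4, 0 to 5, 0 to 4 and 0 to 6, and for the paralogues from 0 to 3. The cause of these differences was not tested. With the replicate block by title number the count over all genes stayed at 0. Libraries of the same title number did not all deviate together (correlations of 0.189, -0.0963 and 0.262 over genes), and anti-CD73 replicate 2 correlated best with control replicate 1 (0.176), so the numbers were not taken as pairs. With at most 43 reads for Tagln and 26 for Myl9 in a library, depth limits those genes.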

Other observations

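Transcripts of striated muscle were present at low levels in all 6 libraries. The 11 skeletal muscle markers summed to 301, 268 and 279 normalized counts after anti-CD73 and to 124, 238 and 261 in the controls, with most of the reads in Acta1, Ckm and Mylpf. Tnnt3, a troponin of fast muscle, was picked out after its values were seen. It stood at 15.8, 22.2 and 14.4 after anti-CD73 and at 0, 6.34 and 5.24 in the controls. With means of 17.5 and 3.86, it reached the limit of 10 for the fit only through the anti-CD73 libraries. Its separation of the groups is therefore a description. The log2 fold change was 2.35 (SE 0.78, limma adjusted p = 0.228), or 1.43 without control replicate 1. It passed there (limma adjusted p = 0.0384), where 11.9% of all genes passed as higher. Ckm, the muscle creatine kinase, overlapped between the groups, at 102, 98.5 and 75.1 after anti-CD73 and 44.7, 77.3 and 118 in the controls. The heavy chain genes Myh1, Myh2 and Myh4 did not exceed 4.11 in any library. The 6 myoepithelial markers summed to between 25.1 and 41.3 after anti-CD73 and between 21.3 and 31.7 in the controls, and Krt5, a defining keratin of those cells, did not exceed 1.03. Both lists hold genes of cells that also express actins, tropomyosins or Des. Their part in the values of Acta2, Tpm2 and Des was not tested.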
